A study of Mus musculus with 8 samples.

Results

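NF-kappaB is a family of transcription factors built from pairs of 5 related subunits, and 10 genes were followed here in hearts of newborn mice: those for the subunits (Nfkb1, Nfkb2, Rel, Rela and Relb), for 3 inhibitors of the IkB type (Nfkbia, Nfkbib and Nfkbie) and for 2 kinases that mark IkB proteins for destruction (Ikbkb and Chuk). The genes were chosen by name, and each symbol, matched without regard to case, had 1 locus, so the 10 loci stand among 39614 loci with a gene symbol and 80155 loci in all. RNA-seq had been made from whole hearts, with the atrial appendages removed, of Hsd:ICR(CD-1) male mice at postnatal day 1 (P1, 4 hearts) and day 7 (P7, 4 hearts), with 1 library per heart. The mice of both stages were of the same stock, and the labels give no genotype or treatment, so age was the only labelled difference. The comparison between the stages belongs to a study of the heart in the days when its capacity to regenerate is lost. The unit is FPKM, the number of sequenced fragments scaled to the length of the transcript and to the mapped fragments of the library, which allows levels to be compared between genes.

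In resting cells, NF-kappaB dimers are held in the cytoplasm by IkB proteins. In the canonical pathway, signals from cytokine and Toll-like receptors activate the IkB kinase complex, IkB proteins are phosphorylated and degraded, and dimers such as those of p50 (made from Nfkb1) and RelA enter the nucleus. In the noncanonical pathway, the kinase encoded by Chuk acts on the p100 product of Nfkb2, whose processing to p52 releases dimers with RelB. Nfkbia, Nfkb2 and Relb are themselves known targets of NF-kappaB, and in the heart the pathway is known for its part in inflammation, hypertrophy and the response to injury.

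Because kappaB sites in the promoters of these genes are part of how the pathway controls itself, promoters were read from the RefSeq table (build GRCm38.p6, 300 bases around each transcription start). It held 9 promoters of 7 of the 10 genes and none for Nfkb1, Relb and Ikbkb. The 10-base kappaB consensus was searched on both strands, and a match shows only that these letters are in the window. At least 1 match was found for Rel, Nfkbia, Nfkbie and Nfkb2, and none in the windows of Nfkbib, Rela and Chuk. Of 32851 promoters in the table, 8.46% held a match, and of 27025 genes, 9.55% had a promoter with one. The 4 promoters below, 1 for each gene with a match, are shown 5′ to 3′ on the strand of the gene with the matching bases in capitals. They lie at chr12:55492598-55492897 on the minus strand (Nfkbia), chr19:46304487-46304786 on the plus strand (Nfkb2, the first of 3 starts), chr17:45555450-45555749 on the plus strand (Nfkbie) and chr11:23770920-23771219 on the minus strand (Rel).
Nfkbia: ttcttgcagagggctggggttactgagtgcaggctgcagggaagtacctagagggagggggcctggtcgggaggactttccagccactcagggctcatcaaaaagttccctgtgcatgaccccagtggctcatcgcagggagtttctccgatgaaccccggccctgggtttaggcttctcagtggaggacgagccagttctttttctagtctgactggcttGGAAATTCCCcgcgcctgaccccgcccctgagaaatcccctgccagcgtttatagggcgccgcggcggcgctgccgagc
Nfkb2: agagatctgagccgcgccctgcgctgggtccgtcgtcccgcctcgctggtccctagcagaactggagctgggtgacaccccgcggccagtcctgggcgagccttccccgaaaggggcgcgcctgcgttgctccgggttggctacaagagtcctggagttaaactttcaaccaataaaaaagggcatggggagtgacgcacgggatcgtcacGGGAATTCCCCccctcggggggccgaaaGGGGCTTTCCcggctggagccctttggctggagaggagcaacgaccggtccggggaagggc
Nfkbie: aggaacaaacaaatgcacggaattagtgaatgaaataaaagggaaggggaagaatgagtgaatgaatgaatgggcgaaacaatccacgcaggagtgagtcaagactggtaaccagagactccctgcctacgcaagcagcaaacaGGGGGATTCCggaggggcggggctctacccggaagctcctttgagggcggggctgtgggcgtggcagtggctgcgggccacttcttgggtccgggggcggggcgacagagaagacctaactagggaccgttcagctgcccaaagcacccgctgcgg
Rel: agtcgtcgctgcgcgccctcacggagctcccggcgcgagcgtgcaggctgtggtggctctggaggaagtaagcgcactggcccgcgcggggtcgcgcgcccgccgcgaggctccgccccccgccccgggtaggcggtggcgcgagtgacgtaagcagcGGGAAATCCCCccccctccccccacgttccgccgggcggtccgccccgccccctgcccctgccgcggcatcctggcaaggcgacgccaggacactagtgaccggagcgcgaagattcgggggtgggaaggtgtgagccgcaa
The capitals began 29 bases before the start in Nfkbia, 106 bases before it in Nfkbie and 92 bases before it in Rel, where 2 matches overlapped by all but 1 base. In Nfkb2, a pair of overlapping matches began 39 bases before the start and a further match 11 bases before it, and the windows of the other 2 starts of Nfkb2 also held matches. Of the 4 genes, Nfkbia, Nfkbie and Nfkb2 were at higher levels in all P7 hearts than in the P1 hearts with no overlap, whereas Rel was not, as described next. Of the 3 genes with no match in their windows, Rela and Nfkbib were separated in the same way and Chuk was not. Such separation was seen in 17.3% of annotated loci tested, and a link between the sites and the levels was not tested. Loci were tested if they reached 1 FPKM in any heart, which Nfkbie did only in P7 hearts.

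Transcripts of all 10 genes were detected in every heart, and 8 of the 10 reached 1 FPKM in all 8 hearts. In the FPKM as deposited, 3 subunits (Nfkb2, Rela and Relb) and 1 inhibitor (Nfkbia) were called higher in P7 by the rule given below. Their ratios of mean FPKM lay between 1.92 and 3.11. For 6 genes (these 4, Nfkbib and Nfkbie) the P7 hearts all lay above the highest P1 heart, and for Nfkb1, Rel and both kinases the stages overlapped. A gene was called when the adjusted p was under 0.05 (limma on log2 of FPKM + 1, Benjamini-Hochberg over 43172 loci) and the ratio of mean FPKM was at least 1.5. By this rule 4 of 10 genes were called, all higher in P7, where 7.74% of 17960 annotated loci tested were called higher. Complete separation with P7 above P1 was seen in 17.3% of the same loci, beside 6 of 10 here. Loci were tested if they reached 1 FPKM in any heart, and Nfkbie, among the 6, did so only in P7 hearts. The median log2 fold change of the 10 genes was 0.67, beside 0.19 over the annotated loci. The shares of 7.74% and 17.3% are over loci of every content of the bases G and C (GC content). In the highest of 5 groups by GC content, where 5 of the 10 genes stood, 26.1% of loci were called higher. The share of separated loci was not split by GC content. After the GC correction described below, 0 of the 10 genes were called by limma (4 at an unadjusted p under 0.05).

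**Figure D1:**
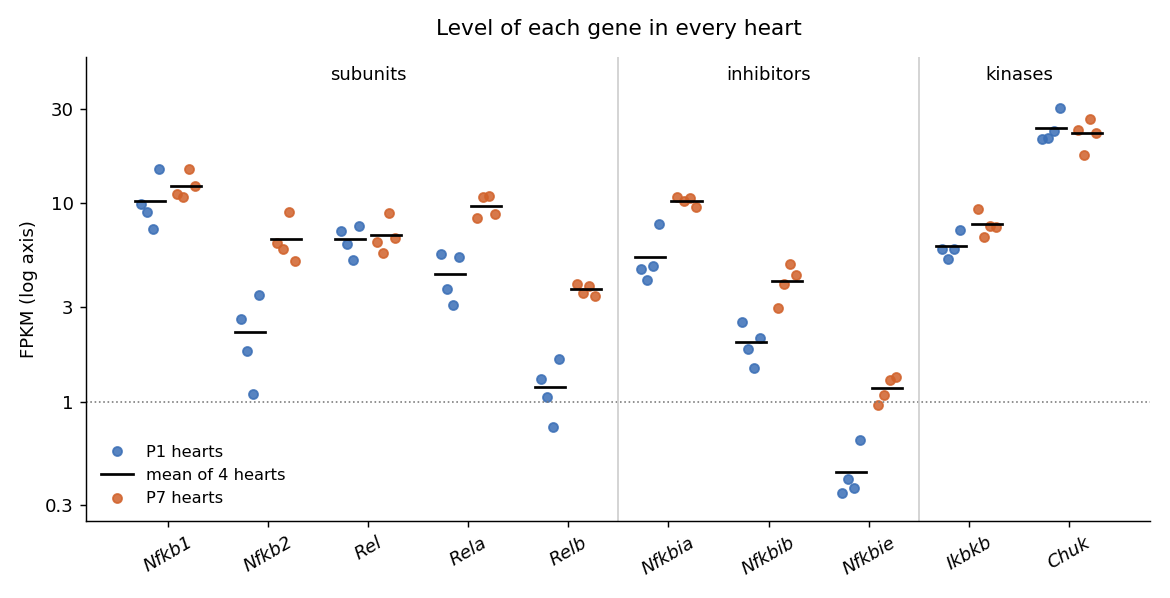
Each point is the FPKM of 1 heart on a log axis, with 4 P1 and 4 P7 hearts per gene, and each black bar is the mean of 4 hearts. The dotted line marks 1 FPKM. Chuk was highest and Nfkbie lowest at both stages, and the 2 stages do not overlap for Nfkb2, Rela, Relb, Nfkbia, Nfkbib and Nfkbie.

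Nfkb1, which encodes the precursor p105 of the DNA-binding subunit p50, had the highest level of the subunits at both stages. The P1 hearts held 9.92, 9.01, 7.43 and 14.9 FPKM and the P7 hearts 11.2, 10.8, 14.9 and 12.3 FPKM. The P1 heart of replicate 4 was as high as the highest P7 heart, so the groups overlapped. That heart was also higher than the other P1 hearts across annotated loci, as given below. The difference was 0.26 on the log2 scale (SE 0.22, 95% interval -0.21 to 0.73), with an adjusted p of 0.495 in the limma fit.

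Nfkb2, the precursor p100 of the noncanonical subunit p52, had the widest relative spread in P1. Its FPKM was 2.61, 1.80, 1.09 and 3.46 in the P1 hearts and 6.33, 5.92, 9.10 and 5.12 in the P7 hearts. Even the highest P1 heart stayed below the lowest P7 heart. The mean went from 2.24 ± 1.02 to 6.62 ± 1.73 FPKM (SD, 4 hearts each), a ratio of 2.95, and the log2 fold change was 1.26 (SE 0.25), with an adjusted p of 0.0213 in the limma fit.

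Relb, the subunit that pairs with p52 and p50, was the lowest of the 5 subunits at both stages. The P1 values were 1.30, 1.05, 0.744 and 1.64 FPKM, and the P7 values were 3.92, 3.54, 3.84 and 3.43 FPKM. The P7 hearts lay close together, with an SD of 0.236 FPKM around a mean of 3.69, and all were more than 1 FPKM above the highest P1 heart. Its ratio of mean FPKM, 3.11, was the highest of the 10 genes, and its adjusted p, 0.0121 in the limma fit, was the lowest, at a log2 fold change of 1.12 (SE 0.19).

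Rela encodes p65, the main transactivating subunit of the canonical pathway. It stood at 5.57, 3.71, 3.06 and 5.36 FPKM in P1 and at 8.40, 10.8, 10.9 and 8.89 FPKM in P7. No P7 heart came down to the level of a P1 heart. The mean went from 4.43 ± 1.23 to 9.75 ± 1.29 FPKM (SD, n = 4 each), with a log2 fold change of 1.01 (SE 0.21) and an adjusted p of 0.0228 in the limma fit.

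Rel, the c-Rel subunit best known from lymphocytes, behaved differently. Its FPKM was 7.26, 6.25, 5.17 and 7.74 in P1 and 6.37, 5.60, 8.96 and 6.70 in P7. The hearts of the 2 stages were interleaved. The log2 fold change was 0.05 (95% interval -0.38 to 0.48) with an adjusted p of 0.886 in the limma fit, and the locus is shared in the files with a second symbol, Gm20645, whose part in the value cannot be separated.

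The 3 inhibitors were also separated by stage, with the P7 hearts on top. Nfkbia encodes IkB-alpha, which binds p50 and RelA dimers and is rapidly degraded and resynthesized on signalling. It was measured at 4.69, 4.10, 4.81 and 7.86 FPKM in P1 and at 10.8, 10.3, 10.6 and 9.63 FPKM in P7. The P7 hearts were nearly level with one another, while the P1 heart of replicate 4 lay apart from the other P1 hearts, as it also did across annotated loci. The log2 fold change was 0.86 (SE 0.20, 95% interval 0.43 to 1.30), the ratio of mean FPKM 1.92 and the adjusted p 0.0357 in the limma fit.

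Nfkbib, which encodes IkB-beta, a slower inhibitor of RelA and c-Rel dimers, was at 2.51, 1.85, 1.48 and 2.10 FPKM in P1 and at 2.97, 3.92, 4.97 and 4.35 FPKM in P7. The stages did not overlap, with a gap of under 1 FPKM between the nearest hearts. Its log2 fold change of 0.76 (95% interval 0.33 to 1.18) had an adjusted p of 0.0536 in the limma fit and missed the threshold. Nfkbie, which encodes IkB-epsilon, was the least abundant gene, at 0.347, 0.408, 0.367 and 0.643 FPKM in P1 and 0.963, 1.08, 1.29 and 1.33 FPKM in P7. All P1 hearts were below 1 FPKM and 3 of 4 P7 hearts were above it. The ratio of mean FPKM was 2.64, whereas the log2 fold change was 0.59 (95% interval 0.19 to 0.99) with an adjusted p of 0.105 in the limma fit. With a pseudocount of 0.1 in place of 1 the log2 fold change was 1.25, and the gene was not called either (adjusted p 0.0980 in the limma fit).

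The kinases differed less than the inhibitors. Ikbkb encodes IKK-beta, the kinase of IkB proteins in the canonical pathway, and was at 5.87, 5.22, 5.90 and 7.32 FPKM in P1 and 9.33, 6.80, 7.74 and 7.62 FPKM in P7. One P1 heart reached into the range of the P7 hearts. Its log2 fold change was 0.33 (95% interval -0.06 to 0.72) with an adjusted p of 0.346 in the limma fit. Chuk encodes IKK-alpha, the kinase required in the noncanonical pathway, and was the most abundant of the 10 genes, with 21.2, 21.4, 23.2 and 30.5 FPKM in P1 and 23.6, 17.5, 26.8 and 22.6 FPKM in P7. The stages overlapped almost entirely. The log2 fold change was -0.09 (95% interval -0.52 to 0.34), with an adjusted p of 0.800 in the limma fit.

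Ordered by mean FPKM, Chuk came first and Nfkb1 next at both stages, and the last 3 places were held by Nfkbib, Relb and Nfkbie. The order in between changed. In P1, Rel (6.61 FPKM), Ikbkb (6.08 FPKM), Nfkbia (5.37 FPKM) and Rela (4.43 FPKM) followed each other, and the ranges of neighbours overlapped. In P7, Nfkbia (10.3 FPKM) and Rela (9.75 FPKM) stood before Ikbkb (7.87 FPKM) and Rel (6.91 FPKM). At P7 the ranges of neighbours overlapped too, except that Nfkb1 lay just above Nfkbia, Nfkb2 above Nfkbib and Relb above Nfkbie with no shared values, and Chuk lay above Nfkb1.

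The summed FPKM of the 5 subunits lay between 17.5 and 33.1 at P1 and between 36.2 and 47.7 at P7, and that of the 3 inhibitors between 6.35 and 10.6 at P1 and between 14.7 and 16.8 at P7. The ranges did not overlap for either sum. Of the subunit sum, Nfkb1 took 41.5 ± 3.26% at P1 against 31.3 ± 1.81% at P7 (SD over 4 hearts), and Rel took 27.2 ± 2.72% and 17.5 ± 1.56%. Rela took 17.9 ± 2.07% in P1 and 25.0 ± 3.09% in P7, Nfkb2 took 8.68 ± 1.87% and 16.7 ± 2.12%, and Relb took 4.73 ± 0.323% and 9.50 ± 1.14%. For each of the 5 shares the hearts of the 2 stages did not overlap. The shares that were higher in P7 belong to genes with a higher GC content in their transcripts. These were Nfkb2 and Rela (both 59.4%) and Relb (56.8%), against 44.9% for Nfkb1 and 42.5% for Rel. Order, sums and shares were taken as deposited, without the GC correction described below, and the part of GC content in them was not tested. The FPKM of inhibitors over subunits lay between 0.283 and 0.380 at P1 and between 0.352 and 0.421 at P7, with overlap, and the summed kinases stood at 26.6 to 37.8 FPKM in P1 and 24.3 to 34.5 FPKM in P7.

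Ratios between 2 genes within a heart do not depend on a scaling factor shared by all genes of that heart. A dependence on GC content that varies by heart does not cancel between genes of unlike GC content. In all, 8 ratios were computed from the FPKM as deposited, as a description with no test, and most moved with GC correction, as given below. The ratio of Rel to Rela was 1.30, 1.68, 1.69 and 1.44 in the P1 hearts and 0.759, 0.518, 0.822 and 0.754 in the P7 hearts. In the 4 P1 hearts c-Rel transcripts thus stood above those of p65, and in the 4 P7 hearts below them. The ratio of Nfkb2 to Nfkb1 was 0.263, 0.200, 0.147 and 0.232 in P1 and 0.567, 0.551, 0.609 and 0.417 in P7, so the noncanonical precursor gained on the canonical one in each P7 heart. The log2 difference between the stages was -1.12 (SE 0.18) for Rel to Rela and 1.37 (SE 0.22) for Nfkb2 to Nfkb1. Rela to Nfkb1 (0.89, SE 0.18), Relb to Rela (0.52, SE 0.14) and Ikbkb to Chuk (0.47, SE 0.12) were also higher in P7 without overlap between the hearts. Nfkbia to Rela was 0.843, 1.10, 1.57 and 1.47 in P1 and 1.28, 0.950, 0.968 and 1.08 in P7, so IkB-alpha and p65 transcripts were at similar levels at both stages. The stages also overlapped for Nfkbib to Nfkbia (0.268 to 0.535 in P1, 0.277 to 0.471 in P7) and for Nfkbie to Nfkbia (0.0740 to 0.0996 in P1, 0.0896 to 0.138 in P7).

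**Figure D2:**
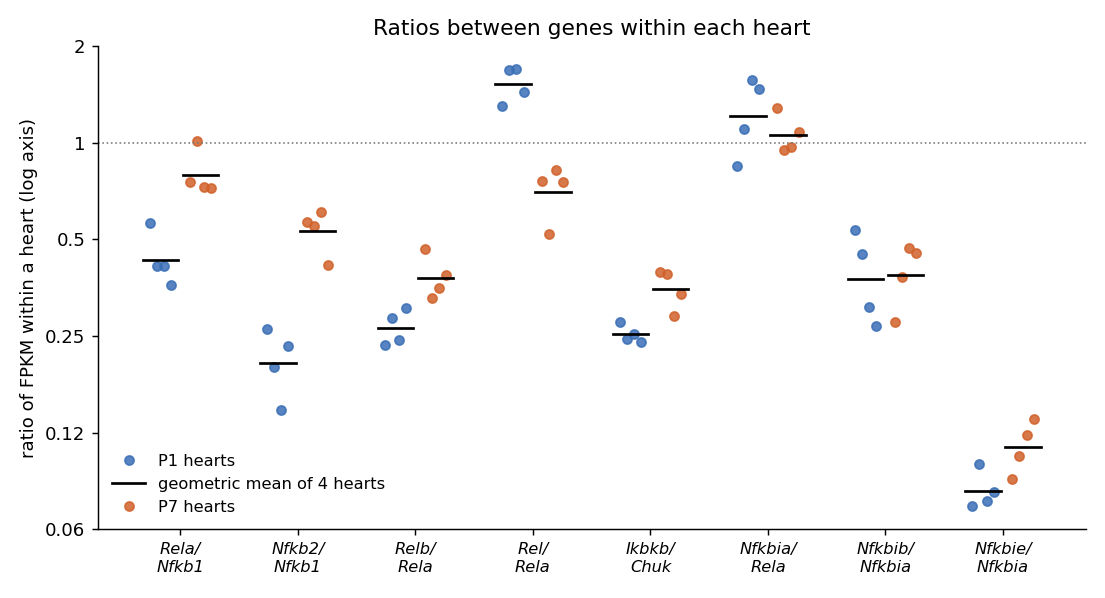
Each point is the ratio of the FPKM of 2 genes in 1 heart on a log axis, with 4 hearts per stage, and each black bar is the geometric mean. Rel to Rela lies above 1 in the P1 hearts and below 1 in the P7 hearts, and the 3 ratios with Nfkbia overlap between the stages. The FPKM are as deposited, without GC correction.

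The 10 genes differ in the base composition of their transcripts, and so did the stage difference across all loci. By the longest annotated transcript, GC content was 41.3% for Chuk, 42.5% for Rel and 44.9% for Nfkb1, and these genes were not called. Nfkb2 and Rela were both at 59.4%, Nfkbib at 58.8%, Relb at 56.8%, Nfkbie at 55.4%, Nfkbia at 52.9% and Ikbkb at 51.2%. Among annotated loci tested, split into 5 groups of nearly equal size by GC content, the median log2 fold change was -0.04 in the group of lowest GC and 0.62 in that of highest GC, and 1.03% and 26.1% of loci were called higher. In the group of highest GC (54.8% and above) stood 5 of the 10 genes, of which 3 were called. When the dependence on GC content was removed within each heart, 0 of the 10 genes were called by limma, 4 of them (Nfkb2, Rela, Relb and Nfkbia) at an unadjusted p under 0.05. The log2 fold changes were then 0.83 for Nfkb2, 0.77 for Relb, 0.72 for Nfkbia and 0.58 for Rela, with 95% intervals that stayed above 0 (0.29 to 1.37, 0.38 to 1.16, 0.29 to 1.14 and 0.16 to 1.00) and adjusted p of 0.126, 0.0644, 0.0986 and 0.166. Those of Nfkbib (0.34, 95% interval -0.07 to 0.75) and Nfkbie (0.30, 95% interval -0.09 to 0.70) no longer excluded 0. Chuk, Rel and Nfkb1 moved upwards, to 0.19, 0.31 and 0.46, so the 10 genes stood closer together. The change between the stages in the ratio of Rel to Rela became -0.32 and that of Nfkb2 to Nfkb1 0.58 on the log2 scale. Rela to Nfkb1 became 0.17 and Ikbkb to Chuk 0.13, while Relb to Rela was 0.47. The sign turned for Nfkbia to Rela (from -0.19 to 0.15), Nfkbib to Nfkbia (from 0.05 to -0.37) and Nfkbie to Nfkbia (from 0.45 to -0.11). Relative to the mean of each locus, the group of highest GC lay below that of lowest GC in every P1 heart (by -0.46 to -0.22 on the log2 scale) and above it in every P7 heart (by 0.22 to 0.49), so the dependence on GC content and the stage cannot be told apart.

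**Figure D3:**
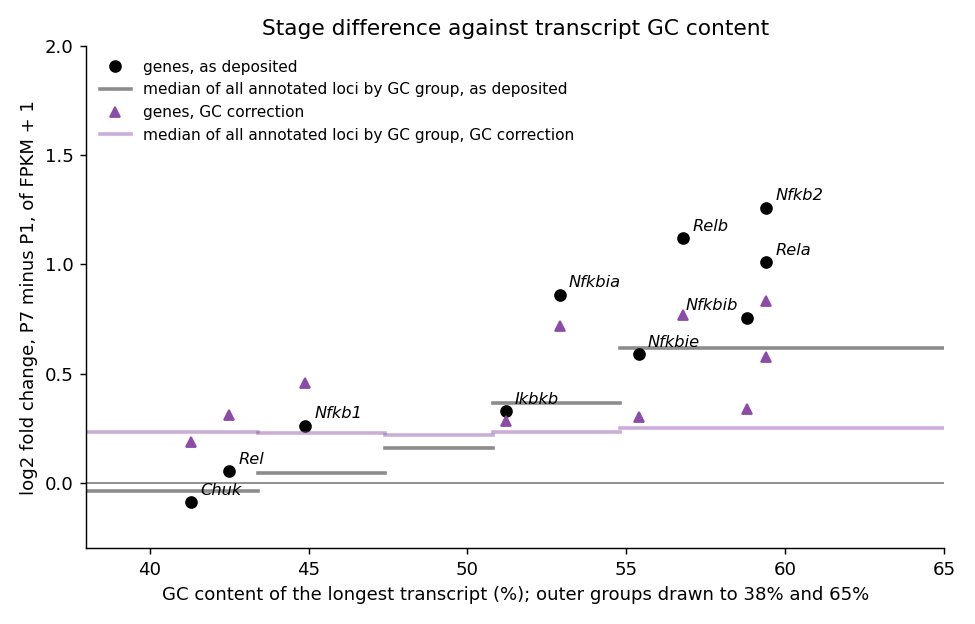
The log2 fold change of FPKM + 1 between the stages is plotted against the GC content of the transcript, with the 10 genes as points and the median of all annotated loci in each of 5 groups by GC content as bars. As deposited, the bars climb from -0.04 to 0.62, and after GC correction they lie between 0.22 and 0.25 and of the 10 genes Chuk alone lies below its bar.

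When each heart was divided by its median ratio to the mean heart, which moved the median log2 fold change of annotated loci from 0.19 to 0.0021, the same 4 genes were called, with log2 fold changes of 0.65 to 1.09. Under that scaling, 2009 annotated loci were called and 69.1% of them were higher in P7, against 1462 called and 95.1% higher without it. The number called depended on single hearts. It was 0 by limma without the P1 heart of replicate 2 (6 genes at an unadjusted p under 0.05), where Relb had an adjusted p of 0.0529 in the limma fit. It was 1 (Relb) without the P1 heart of replicate 3, without the P7 heart of replicate 1 or without the P7 heart of replicate 3, and 3 to 5 without any other single heart. The log2 fold change of each of the 6 separated genes was above 0 in every alternative in which it was tested. For genes separated in this way, only the scalings and the GC correction could have turned the sign, so the other alternatives are no check of it. The P1 heart of replicate 3 stood apart, with 14206 loci without a gene symbol at 1 FPKM or more against 4914 to 7513 in the other hearts.

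**Figure D4:**
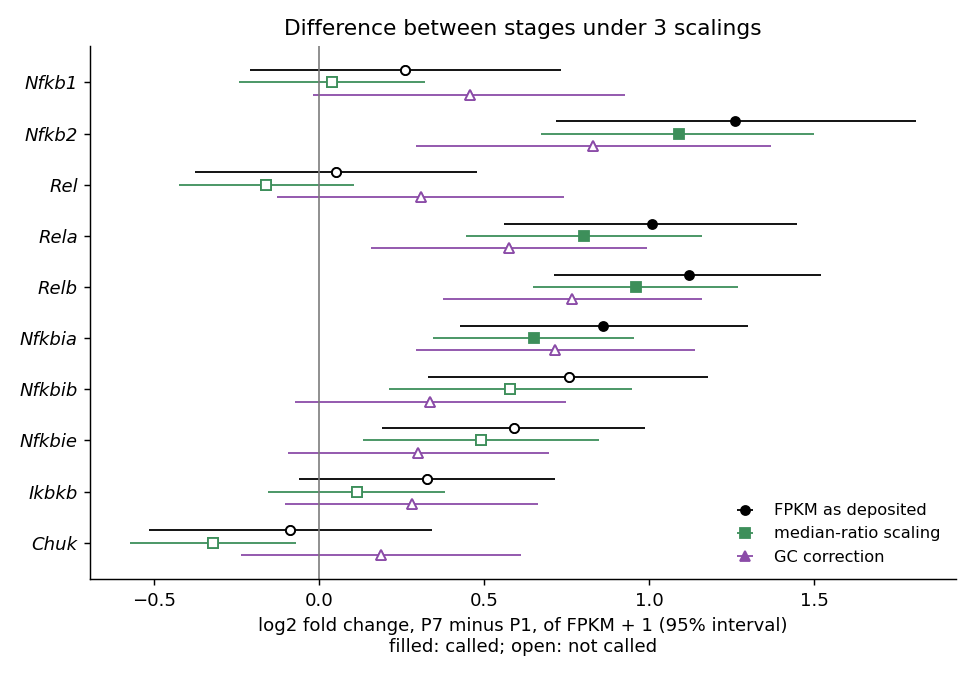
Log2 fold changes of FPKM + 1, P7 minus P1, with 95% intervals, for the FPKM as deposited, after median-ratio scaling and after GC correction, with filled symbols for called genes. The same 4 genes are filled in the first pair, and none after GC correction, where the intervals of Nfkb2, Rela, Relb and Nfkbia still lie above 0.

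Loci that share the position of these genes were also read. Nfkb2 (chr19:46304737-46327156 as the files give its span, GRCm38, counted from 1) overlaps Psd on the opposite strand, which had 0.791 to 1.21 FPKM in P1 and 1.52 to 2.33 FPKM in P7. Nfkbib (chr7:28756174-28788665) overlaps Sirt2, whose FPKM lay between 17.0 and 25.1 at P1 and between 33.0 and 44.6 at P7, well above Nfkbib itself. Gm6537 in that span and Gm15346 within the span of Ikbkb (chr8:22659212-22706742) were at 0 in most hearts. A locus without a symbol at Rela (chr19:5636307-5648461) was between 0.164 and 0.758 FPKM. Whether reads were assigned by strand is not given in the sources used here, and the part of these neighbours in the Nfkbib and Nfkb2 values was not tested.

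Around these 10 genes, 92 others of the pathway were grouped by role, and 75 of them were tested. Of the 75, 12 were called, all higher in P7 (16.0%, beside 7.74% of annotated loci), and after GC correction 0 were called by limma (29 at an unadjusted p under 0.05). The count was 4, 0 and 1 without the P1 hearts of replicates 1, 2 and 3, and 1, 0 and 3 without the P7 hearts of replicates 1, 3 and 4. Among the 12 called in the reported fit, Ikbke was tested only because it reached 1 FPKM in P7 hearts, where it was higher. Ligands were scarce: 7 of 10 did not reach 1 FPKM in any heart, and Tnf, the classical activator, was at 0.262 to 0.609 FPKM in P1 and 0.462 to 0.911 FPKM in P7. Of the 3 ligands tested, 0 were called by limma (0 at an unadjusted p under 0.05). The highest of them, Il33, an alarmin of the interleukin-1 family, stood at 1.96, 1.71, 1.32 and 2.10 FPKM in P1 and 1.52, 0.835, 0.735 and 1.48 FPKM in P7, a log2 fold change of -0.38 with an adjusted p of 0.330 in the limma fit.

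Of 8 receptors tested, 2 were called higher in P7. This count and those of the lists below are to be read beside the 7.74% of annotated loci called higher. Ltbr, the lymphotoxin beta receptor that feeds the noncanonical pathway, was at 14.2, 8.74, 6.94 and 14.0 FPKM in P1 and 23.6, 21.6, 27.1 and 23.9 FPKM in P7. Tnfrsf1a, the main receptor for TNF, was at 8.44, 5.96, 6.23 and 8.25 FPKM in P1 and 13.7, 14.4, 15.0 and 12.8 FPKM in P7. For both receptors the stages were separate, with log2 fold changes of 1.12 and 0.88 and the same adjusted p of 0.0230 in the limma fit. Of 22 adaptors and signalling proteins tested, 5 were called higher. Among them were Rbck1, a subunit of the linear ubiquitin chain assembly complex (log2 fold change 1.00), and Tradd, which binds the TNF receptor (0.85). Myd88, the adaptor of Toll-like and interleukin-1 receptors (1.02), and Card10, a scaffold for signalling by G protein-coupled receptors (0.92), were also called. Tab2, the most abundant adaptor, had a log2 fold change of -0.0011 with an adjusted p of 0.997 in the limma fit.

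Of 7 tested genes for IkB kinase partners and other IkB proteins, 1 was called higher, Ikbke, an IKK-related kinase. It had 0.408 to 0.887 FPKM in P1 and 1.59 to 2.13 FPKM in P7, at an adjusted p of 0.0485 in the limma fit. Loci were tested if they reached 1 FPKM in any heart, and Ikbke did so only in P7 hearts. The most abundant gene of this list, Tank, which binds TRAF proteins, was at 18.6 to 26.7 FPKM in P1 and 13.0 to 22.5 FPKM in P7. Tank was not called. Of 11 negative regulators, 2 were called higher, Tnip1 (log2 fold change 0.90) and Pdlim2, which promotes the breakdown of nuclear p65 (0.95). The locus of Commd1, with the highest mean at 94.4 FPKM, was not called (0.40, adjusted p 0.388 in the limma fit). It also carries the symbols B3gnt2 and Gm12057, whose parts in the value cannot be separated. Of 24 target genes tested, 2 were called higher, which is near the share of 7.74% over annotated loci. They were Tapbp, which loads peptides onto MHC class I (0.93), and Junb, a subunit of AP-1 (0.87). The locus of Tapbp also carries the symbol Zbtb22, whose part in the value cannot be separated. Sod2, the mitochondrial superoxide dismutase and the most abundant target, had a log2 fold change of 0.36 with an adjusted p of 0.367 in the limma fit. Of the 24 fold changes, 20 were above 0, as were 67.6% of those of annotated loci tested. Median log2 fold changes were 0.21 for the IkB kinase partners and other IkB proteins, -0.03 for ligands and 0.26 for receptors. They were 0.38 for adaptors, 0.45 for negative regulators and 0.39 for targets, beside 0.19 over annotated loci.

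**Figure D5:**
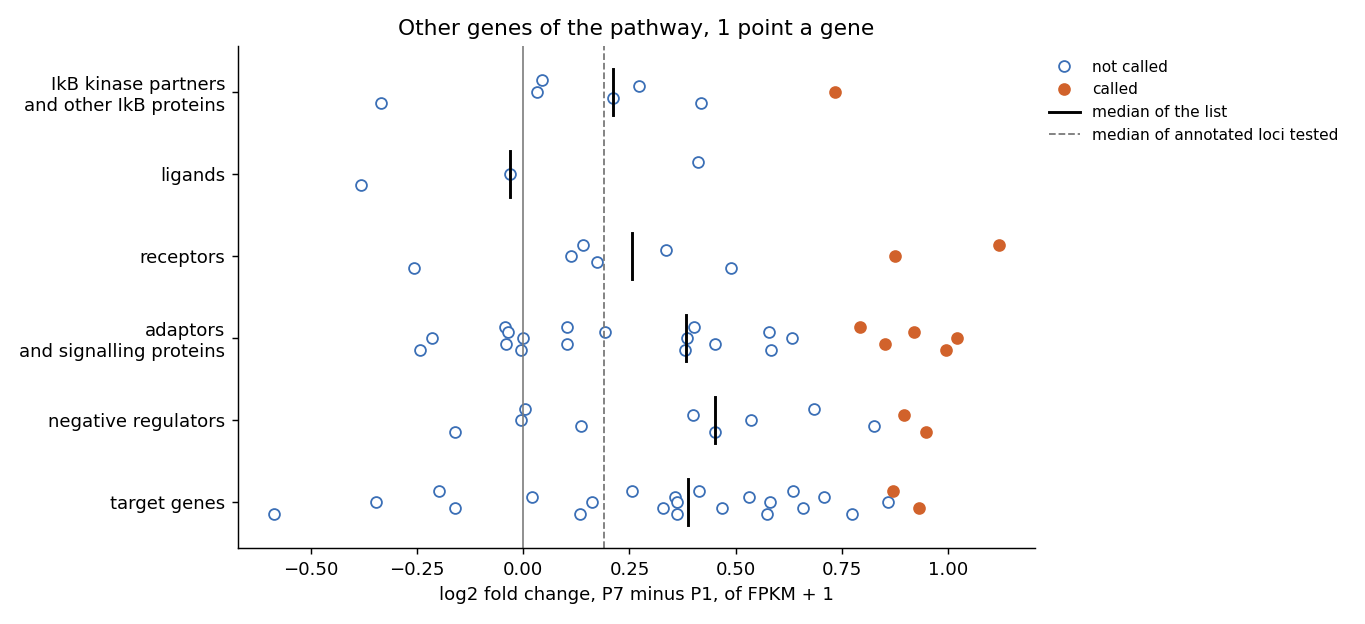
Each point is 1 tested gene of a pathway list, placed by its log2 fold change of FPKM + 1 (P7 minus P1), filled where called, with the median of each list as a black bar and the median of annotated loci as a dashed line. The 12 called genes lie to the right of 0.70, and no called gene lies below 0.

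In whole hearts, more cells of a type and more RNA per cell cannot be told apart, and some markers of other cell types differed between the stages, to be read beside the 7.74% of annotated loci called higher. Of 7 fibroblast markers, 4 were called higher in P7, and their summed FPKM ranged from 819 to 1688 at P1 and from 1745 to 2181 at P7 (Col3a1 with a log2 fold change of 1.55, Pdgfra with 0.48 and Postn with -0.19, the last 2 not called). Of endothelial markers 2 of 6 were called (Cdh5 0.96, Tie1 1.20) and Tek (0.03) and Emcn (-0.43) were not, with sums of 91.0 to 153 FPKM in P1 and 124 to 189 FPKM in P7. Of 11 leukocyte markers tested 1 was called, Lyz2 (1.22), and 4 had log2 fold changes below 0 (Itgam -0.11, Mrc1 -0.16, S100a8 -0.52 and S100a9 -0.71, none called), with sums of 58.4 to 71.8 and 66.3 to 106 FPKM. The lymphocyte markers Cd3e and Cd79a did not reach 1 FPKM in any heart. Of smooth muscle and pericyte markers 1 of 6 was called, with sums of 294 to 611 and 246 to 377 FPKM (Acta2 -0.90 and Myh11 0.48, neither called). Of cardiomyocyte markers 0 of 7 (Myl2 0.14, Ryr2 -0.13) and of erythroid markers 0 of 5 (Hba-a1 0.78) were called by the limma fit (2 and 4 at an unadjusted p under 0.05), with sums of 17871 to 32513 and 315 to 960 FPKM in P1 and 21902 to 34926 and 920 to 1222 FPKM in P7. After GC correction 3 fibroblast markers (Col3a1, Dcn and Tcf21) and Lyz2 were still called by limma, with adjusted p of 0.0366, 0.0278, 0.0440 and 0.00920, and Col1a1, Cdh5, Tie1 and Pdgfrb were not. Cardiomyocyte markers had the highest sums of the 6 lists in every heart. The part of these cell types in the levels of the 10 genes was not tested.

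The precision behind these values was read from the steps of the FPKM of low, unannotated loci. At 14700000 to 23000000 fragments per heart, 99.8% to 99.9% of values under 10 fragments were within 0.1 of a whole number, where the smallest number of fragments that gave such steps was taken. On that scale Nfkbie rested on 18 to 68 fragments in a heart, Relb on 42 to 202, Nfkb2 on 72 to 551 and Chuk on 1073 to 1626, as approximate numbers that take the longest transcript of each gene.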

How the data were processed

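RNA from whole hearts of 4 P1 and 4 P7 mice was ribodepleted and made into paired-end libraries, 1 per heart. The authors had the reads aligned to GRCm38 with an Ensembl annotation, summed over loci and normalized, and deposited 1 FPKM value per locus and heart. The aligner is not given in the sources used here, and no counts were used.

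The 43172 loci that reached 1 FPKM in any heart entered a limma fit (R 4.3.3, limma 3.58.1), lmFit and eBayes with a trend on log2 of FPKM plus a pseudocount of 1, with stage as the only term. Benjamini-Hochberg adjustment ran over all of these loci. A fold change on this scale understates the change of low genes. GC content was that of the longest GENCODE M21 transcript, known for 91.7% of annotated loci tested, and its trend was removed per heart with lowess (span 0.3), leaving loci without a value as they were. Python 3.11.15 with pandas 2.3.3 and numpy 2.4.6 was also used. The fit was tested on simulated data.

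The 10 genes, the 6 pathway lists, the 6 marker lists and the tests were chosen with earlier results of these data known. Named from each pathway list were up to 4 called genes with the lowest adjusted p and the gene with the highest mean FPKM, from each marker list the genes with the highest and lowest mean FPKM, and also loci that share a position with the 10 genes. Some genes under this rule are not reported here. Tnf and the further markers Postn, Dcn, Tcf21, Col1a1, Tek, Emcn, Pdgfrb, Itgam, Mrc1, S100a8, S100a9, Cd3e and Cd79a were named after their values were seen. Alternatives were another pseudocount, filters, scalings, hearts weighted by quality, eBayes without a trend, a replicate block, GC correction and leaving out each heart. The hearts are separate animals.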

Additional observations from a re-analysis of the deposited data

Results flagged for a closer look

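The ratio of Rela to Nfkb1 in the P7 hearts was looked at again because 1 heart lay far from the other 3. The P7 heart of replicate 2 had a ratio of 1.01, and the others 0.724 to 0.752, so the gap took up 0.901 of the range of the group. The levels behind it were 10.8 FPKM for both genes, where Nfkb1 was the lowest and Rela the second highest of the P7 hearts. It was the 1 such case among 36 sets of 4 hearts (the levels of the 10 genes and the 8 ratios at both stages), and chance marks about 1 set in 20. With all hearts, every P7 ratio was above every P1 ratio, which leaving out 1 heart cannot change.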

How the results depend on the processing

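Each fit was repeated under 19 alternatives, of which 8 left out 1 heart. Of the 10 genes, 4 were called in the reported fit and 3 to 6 under the other pseudocount, filters, scalings, weights, no trend and the replicate block. With GC correction 0 were called by limma (4 at an unadjusted p under 0.05), with GC correction and the replicate block 0 (4), and with GC correction and median-ratio scaling 1 (Relb). Without 1 heart the number ran from 0 to 5. Among all loci, 1650 were called. The number was 686 with no filter, 2711 with 1 FPKM in every heart, 3697 with sample quality weights, 1079 without the trend, 453 with GC correction, 551 with GC correction and the replicate block, 1003 with GC correction and median-ratio scaling, and 199 (without the P1 heart of replicate 2) to 3379 (without that of replicate 4) when 1 heart was left out. Fewer loci were tested with 1 FPKM in every heart, and more with no filter, and the cause of the other shifts was not tested. Of the pathway genes, 12 were called in the reported fit, 2 with no filter, 6 with the replicate block, 19 with sample quality weights, 7 without the trend, 0 with GC correction (29 at an unadjusted p under 0.05), 0 with GC correction and the replicate block (21), 1 with GC correction and median-ratio scaling, and 0 to 16 without 1 heart (at 0, 22 and 23 had an unadjusted p under 0.05).

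The hearts share replicate numbers across stages, but correlations of same-numbered hearts ran from -0.10 to 0.12, so the numbers were not taken as pairs. With the replicate block, 3 of the 10 genes were called (Nfkb2, Rela and Relb), and Nfkbia had an adjusted p of 0.0636 in the limma fit. Over the alternatives in which each was tested, Relb was called in 15 of 18, Nfkb2 and Rela in 12 of 19 each, Nfkbia in 6 of 19, Nfkbib in 3 of 19 and Nfkbie in 1 of 18.

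The sign changed for 2 genes, neither called in any fit. The log2 fold change of Rel was -0.16 with median-ratio scaling and -0.20 with quantile normalization, and ran from -0.065 to 0.13 without 1 heart. That of Chuk was 0.025 with sample quality weights and 0.19 with GC correction, with or without the replicate block, and ran from -0.17 to 0.027 without 1 heart. The FPKM files hold no counts, so the fragment numbers behind low levels such as those of Nfkbie are estimates.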
